A study of Mus musculus with 6 samples.

Results

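The 42 genes described here drive or mark cell division, from the G1 cyclins to the proteins that separate chromosomes. They were chosen by name, of 23462 genes with a symbol on the array, with earlier results of these data known. The rule itself used no measured difference. Each gene was represented by its brightest probe among the 66 that matched a transcript of a member. Gene expression was measured on 6 single-colour arrays of microglia, with 3 arrays labelled as without and 3 as with PGC-1α overexpression.

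The samples came from mice labelled male and 10 weeks old. Per the study's methods, PGC-1αf/f mice on a C57BL/6 background carried a loxP-flanked PGC-1α allele with an eGFP tag and served as littermate controls. In mPGC-1α mice the same allele was combined with a tamoxifen-inducible Cre recombinase expressed from the Cx3cr1 locus, and tamoxifen was given before use. The study's methods describe tamoxifen in both genotypes for other experiments, and do not give it by group for these arrays. Cx3cr1 is active in microglia and also in other cells of the monocyte and macrophage lineage. Microglia were taken from brain with magnetic beads against the surface receptor P2RY12. The labels do not say whether an array holds RNA of a single mouse or of several, so p-values measure the spread between these arrays, which may be partly technical.

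Cell division is run by cyclin-dependent kinases and their cyclin partners. D-type cyclins with CDK4 and CDK6 release E2F factors from RB proteins in G1, E2F factors switch on the genes for DNA replication, and cyclin B with CDK1 drives mitosis, which the anaphase-promoting complex ends. Adult microglia renew themselves slowly by local division. In a bulk sample, fewer dividing cells and less RNA per dividing cell cannot be told apart.

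Some promoters of the members share short motifs that the choice of genes did not use. The cell cycle homology region (TTTGAA or TTCGAA) is bound by complexes that restrict genes to G2 and mitosis, E2F sites (TTTGGCG or TTTCCCG or TTTCGCG or TTTGCCG) are known from genes of the G1 to S transition, and CCAAT is the core of NF-Y sites. Each motif was searched on both strands, where TTCGAA reads the same, in RefSeq promoters of GRCm38.p6 that span 250 bases before to 50 bases after a start site. A promoter was given for 35 of the 42 members, with 37 promoters in all. The 6 promoters printed here belong to members with large or negative differences between the groups and were picked after the matches were seen. They run 5′ to 3′ along the gene, and capitals mark every match.
Ccnb2 (chr9:70421505-70421804, minus strand): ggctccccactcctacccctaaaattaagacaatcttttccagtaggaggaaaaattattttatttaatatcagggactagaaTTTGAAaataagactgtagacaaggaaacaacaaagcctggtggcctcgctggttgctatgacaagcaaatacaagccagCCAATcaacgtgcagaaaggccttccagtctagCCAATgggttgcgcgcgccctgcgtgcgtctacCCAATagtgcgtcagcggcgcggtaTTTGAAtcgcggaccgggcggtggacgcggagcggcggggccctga
Ube2c (chr2:164769679-164769978, plus strand): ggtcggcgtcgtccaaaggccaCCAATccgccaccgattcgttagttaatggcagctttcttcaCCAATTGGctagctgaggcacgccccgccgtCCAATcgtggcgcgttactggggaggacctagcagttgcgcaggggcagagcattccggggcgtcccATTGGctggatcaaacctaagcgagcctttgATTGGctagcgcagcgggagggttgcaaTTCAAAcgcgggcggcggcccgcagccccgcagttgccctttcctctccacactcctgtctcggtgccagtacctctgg
Top2a (chr11:99024140-99024439, minus strand): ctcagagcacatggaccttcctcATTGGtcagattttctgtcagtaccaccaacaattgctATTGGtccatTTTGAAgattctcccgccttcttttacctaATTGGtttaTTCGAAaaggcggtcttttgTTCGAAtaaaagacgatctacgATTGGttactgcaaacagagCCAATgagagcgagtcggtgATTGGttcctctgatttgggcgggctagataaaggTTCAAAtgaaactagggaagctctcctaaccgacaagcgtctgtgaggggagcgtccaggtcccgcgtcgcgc
Mki67 (chr7:135716330-135716629, minus strand): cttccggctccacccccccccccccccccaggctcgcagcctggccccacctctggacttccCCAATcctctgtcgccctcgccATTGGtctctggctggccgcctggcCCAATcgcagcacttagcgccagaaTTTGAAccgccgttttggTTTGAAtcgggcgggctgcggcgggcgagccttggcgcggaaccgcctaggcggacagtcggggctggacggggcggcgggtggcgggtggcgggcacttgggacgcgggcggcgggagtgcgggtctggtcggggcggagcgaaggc
Mcm3 (chr1:20820263-20820562, minus strand): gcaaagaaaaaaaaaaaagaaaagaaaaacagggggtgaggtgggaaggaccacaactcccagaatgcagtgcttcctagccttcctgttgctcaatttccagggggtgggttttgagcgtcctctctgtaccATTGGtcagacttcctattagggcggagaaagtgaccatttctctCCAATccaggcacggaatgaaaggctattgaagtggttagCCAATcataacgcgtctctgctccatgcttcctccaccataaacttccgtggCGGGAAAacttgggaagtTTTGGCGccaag
Mcm6 (chr1:128359656-128359955, minus strand): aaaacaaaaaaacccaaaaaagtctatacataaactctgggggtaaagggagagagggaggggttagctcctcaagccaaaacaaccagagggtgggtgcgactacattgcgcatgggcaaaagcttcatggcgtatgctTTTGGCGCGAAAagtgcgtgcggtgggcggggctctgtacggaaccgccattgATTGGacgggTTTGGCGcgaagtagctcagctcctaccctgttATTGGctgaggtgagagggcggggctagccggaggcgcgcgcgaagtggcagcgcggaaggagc

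The homology region was found in 12 of 15 promoters of mitotic members and Mki67 (80.0%), against 19.2% of all 32851 promoters. All of these 12 also held CCAAT, a pair found in 7.52% of all promoters. In Ccnb2 a TTTGAA began at base 5 after the start, downstream of CCAAT motifs at -87, -54 and -21. Ube2c and Top2a held the reverse form at -29 and -23, and Mki67 held it in the forward form at -116 and -98. E2F motifs were found in 3 of the 15 mitotic promoters (20.0%) and in 6 of 9 promoters of origin licensing and helicase members (66.7%), against 6.7% of all promoters. Mcm3 and Mcm6, subunits of the replicative helicase, each held CCAAT and E2F motifs without a homology region in the window. The 13 promoters of the remaining members held the homology region in 0 cases and E2F motifs in 2. They held CCAAT in 5 cases (38.5%), against 37.4% of all promoters. These matches describe letters in the window and not binding.

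**Figure D1:**
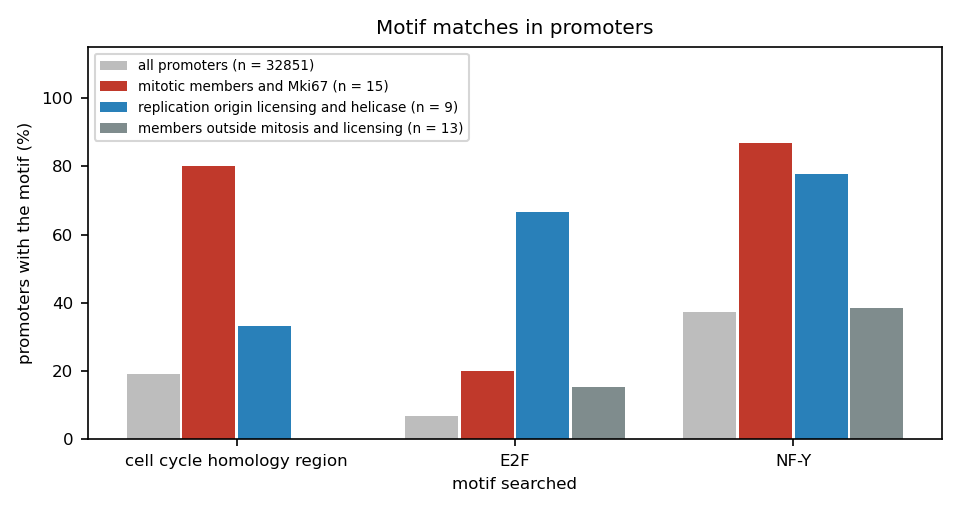
Share of promoters in percent (y axis) that hold each of the 3 motifs (x axis), for all promoters, mitotic members with Mki67, licensing and helicase members, and the remaining members. The homology region was found in 80.0% of mitotic promoters against 19.2% of all, and E2F motifs in 66.7% of licensing promoters against 6.7% of all.

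Some arrays stood apart from the rest. The lowest mean correlation with the rest was that of PGC-1αf/f replicate 3, at 0.928, where the others had 0.962 to 0.972. Of 22 blood leukocyte markers, 20 were tested, 19 had positive differences and 0 passed the test. Some of the 20 were well above background on every array of the mPGC-1α group only, where they were higher. Among the 15 markers measured on all arrays, 14 differences were positive and 1 negative, where 53.0% of all such genes were positive. The summed linear signal of the leukocyte markers was taken in units of the array's 75th percentile. It was 136, 166 and 25.9 in PGC-1αf/f replicates 1 to 3. In mPGC-1α replicates 1 to 3 it was 162, 177 and 198. The B cell gene Cd79a did not rise well above background on any of the 6 arrays. All 17 microglial markers were well above background on all 6 arrays. The endothelial and mural markers summed to 16.3, 16.8 and 5.25 in PGC-1αf/f and to 16.8, 20.3 and 20.9 in mPGC-1α microglia.

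The sex transcripts did not match the male label on every array. Xist, the RNA of the inactive X chromosome, was well above background on PGC-1αf/f replicate 2 and on mPGC-1α replicates 2 and 3, and not on the other 3 arrays. The Y-linked genes Ddx3y, Eif2s3y, Kdm5d and Uty were well above background on every array but mPGC-1α replicate 3. Xist and these Y-linked genes were thus found together on PGC-1αf/f replicate 2 and mPGC-1α replicate 2. Whether those arrays hold RNA of both sexes was not tested. The targeted gene Ppargc1a differed by 0.80 on the log2 scale (SE 0.35), with a limma adjusted p of 0.306. Slide row and group cannot be told apart, since all PGC-1αf/f arrays lay in row 1 and all mPGC-1α arrays in row 2.

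Values below are log2 signal minus the 75th percentile of the array, and differences are mPGC-1α minus PGC-1αf/f on the log2 scale. Testing required a signal well above background on every array of 1 group or both, which held for 39 of the 42 members. Of these, 33 were well above background on all 6 arrays. Ccne2, a cyclin of S phase entry, and Cdc45, a helicase partner, were well above background on 0 of 6 arrays, and Kif11, a spindle motor, was so on 3 of 6.

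None of the 39 tested members passed an adjusted p of 0.05 in limma, where 0.0535% of 13085 tested genes and 0.0792% of all tested probes did. The lowest adjusted p among members was 0.211, for Ccnd2. At an unadjusted p under 0.05, mPGC-1α was higher for 5 of 39 members and lower for 0, where 7.83% and 5.75% of all tested genes were called in these directions. These 5 were Ccnd2, Ccnd3, Ccne1, Cdk1 and Bub1b. The last 3 met the filter only through the mPGC-1α arrays, where they were higher. Among the 33 members well above background on all arrays, 2 were higher, where 6.6% of such genes were. The groups did not overlap for 4 of 39 members, all higher in mPGC-1α, namely Ccnd2, Ccnd3, Pcna and, through that filter, Bub1b. Among the 33 this held for 3, where 11.2% of all genes measured on all arrays lay wholly higher and 10.9% wholly lower. Over all tested genes with complete values, 12.4% lay wholly higher and 10.7% wholly lower, so the members' count was near the background. Without PGC-1αf/f replicate 3, 0 members passed the adjusted threshold (0.0617% of tested genes), and 2 were higher (6.07%) and 0 lower (3.48%) at the unadjusted one. Without mPGC-1α replicate 3, 0 passed, and 1 was higher (4.97%) and 1 lower (4.55%). The counts rose without PGC-1αf/f replicate 2, where 21 of 39 members were higher at an unadjusted p under 0.05 (8.23% of tested genes) and 27 lay wholly higher (17.1%), with 0 past the adjusted threshold. Among the 33 members above background on all arrays these counts were 16 (6.52% of such genes) and 21 (15.4%). Without mPGC-1α replicate 1, 18 of 40 lay wholly higher (18.3%), and 14 of the 33 (16.2%).

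Most members differed in the positive direction. Of the 33 members measured on all arrays, 27 had a positive and 6 a negative difference, where 53.0% of all such genes were positive. Their median difference was 0.40, against 0.019 over all 11154 such genes, and 7 of 33 reached 1 or more, against 2.51% of all. Without PGC-1αf/f replicate 3 the median was 0.21, without mPGC-1α replicate 3 it was 0.35, without both it was 0.19, and with Xist detection as a block it was 0.25. The 11 fully measured mitotic members, Mki67 included, had a median of 1.06, and the 22 members outside mitosis had a median of 0.15.

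**Figure D2:**
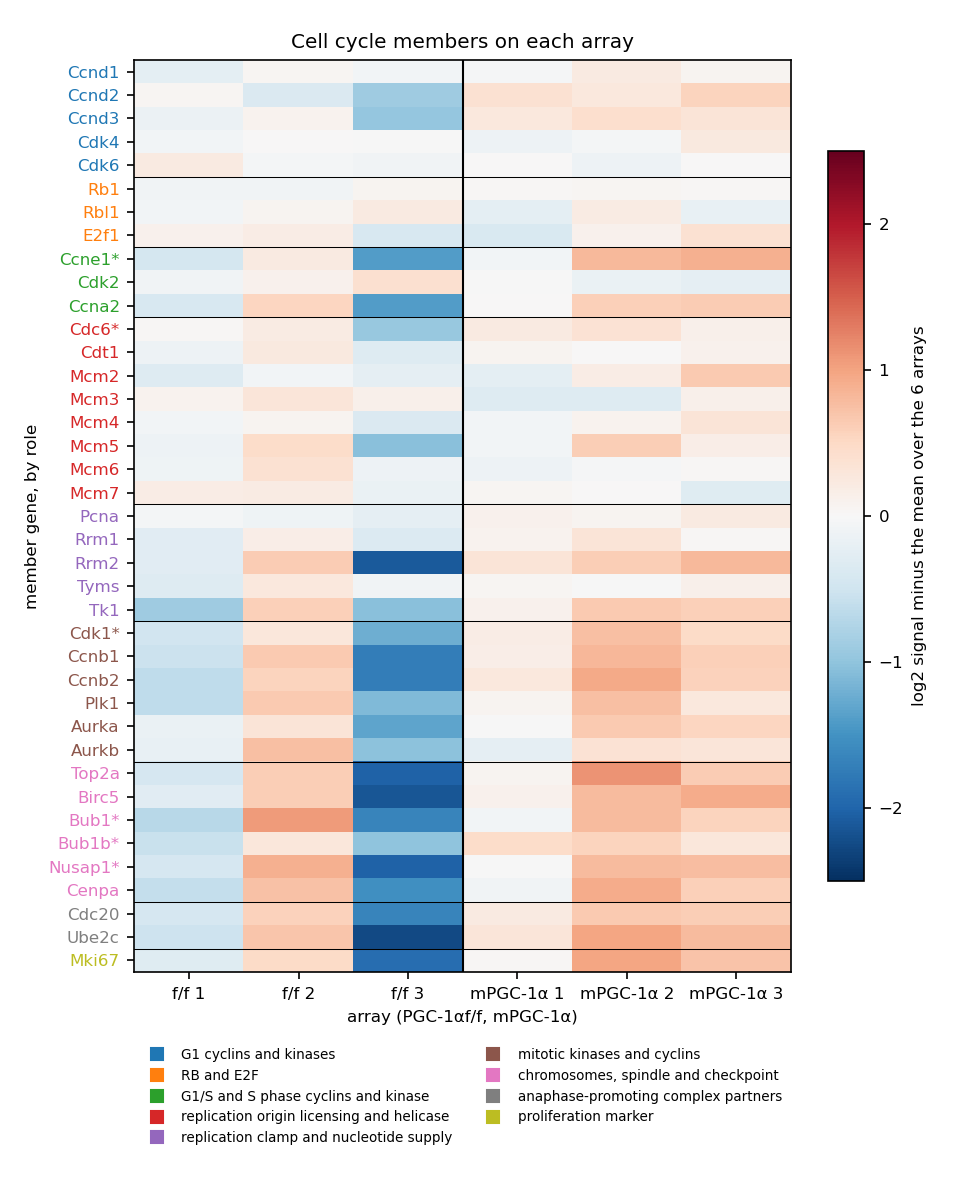
Log2 signal of each of the 39 tested members (rows, grouped by role) on each array (columns), as the difference from the mean over the 6 arrays; an asterisk marks the 6 members not well above background on every array. The mitotic rows are lowest on PGC-1αf/f replicate 3 and high on PGC-1αf/f replicate 2 and on mPGC-1α replicates 2 and 3.

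Among the 5 G1 cyclins and kinases, 0 passed the adjusted threshold and the median difference was 0.17. Ccnd2 gave 1.21, 0.80 and 0.29 in PGC-1αf/f and 1.55, 1.43 and 1.72 in mPGC-1α microglia. All 3 mPGC-1α arrays were above all PGC-1αf/f arrays. The difference was 0.80 (SE 0.24, 95% interval 0.23 to 1.38), or 1.75-fold, with an unadjusted p of 0.0126 and an adjusted p of 0.211 in limma. A second Ccnd2 probe differed by 0.75 (SE 0.21), again without overlap. Without PGC-1αf/f replicate 3 the difference of the brighter probe was 0.57.

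Ccnd3, the D-type cyclin known for its role in lymphocytes, gave 1.55, 1.76 and 0.72 against 1.95, 2.11 and 2.00. The groups did not overlap, but PGC-1αf/f replicate 3 lay far below the other controls. The difference was 0.68 (SE 0.27, limma adjusted p 0.281), and 0.37 without that array. A second Ccnd3 probe differed by 0.46 with overlapping groups, and by 0.02 without that array. Both genes were named after their values were seen.

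Ccnd1, the D-type cyclin most tied to growth factor signals, gave 1.33, 1.62 and 1.49 against 1.53, 1.79 and 1.64. The ranges overlapped, and the difference was 0.17 (SE 0.14, limma adjusted p 0.556). The partner kinases were nearer to 0. Cdk4 differed by 0.05, with 1 of its 3 probes of opposite sign, and Cdk6 by -0.06 (SE 0.14). Cdk6 gave 1.44, 1.16 and 1.12 in PGC-1αf/f and 1.22, 1.09 and 1.23 in mPGC-1α microglia. PGC-1αf/f replicate 1 was above and mPGC-1α replicate 2 below all arrays of the other group, and the remaining values overlapped.

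The RB and E2F members showed differences within the spread of the arrays. Rb1, which encodes the retinoblastoma protein, differed by 0.08 (95% interval -0.21 to 0.36). E2f1, an activator of replication genes, differed by 0.07 (95% interval -0.52 to 0.65), and by -0.12 without PGC-1αf/f replicate 3. Rbl1, which encodes the RB relative p107, gave -0.99, -0.86 and -0.70 against -1.16, -0.73 and -1.11. The highest mPGC-1α array was above 2 of the controls, and the difference was -0.15 (SE 0.17). A second Rbl1 probe differed by -0.39 (SE 0.25) with overlapping groups. It was at -0.15 without PGC-1αf/f replicate 3 and at -0.54 without mPGC-1α replicate 3.

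At the G1 to S transition, Ccna2 was the only cyclin well above background on all arrays. Ccna2, the cyclin of S phase and G2, differed by 0.83 (SE 0.46) and by 0.35 without PGC-1αf/f replicate 3. Ccne1, the cyclin of S phase entry, was well above background on 1 PGC-1αf/f and 3 mPGC-1α arrays and differed by 1.08 (SE 0.44), or by 0.65 without that replicate. Cdk2, the kinase that both cyclins bind, gave -0.81, -0.61 and -0.32 in PGC-1αf/f and -0.73, -0.87 and -0.95 in mPGC-1α microglia. Its ranges overlapped through PGC-1αf/f replicate 1, and the difference was -0.27 (SE 0.17, limma adjusted p 0.428), or -0.14 without PGC-1αf/f replicate 3.

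Genes of origin licensing and the MCM helicase, which is loaded on DNA before replication, had a median difference of 0.13 over 7 fully measured members, with 4 positive and 3 negative. The median was 0.0056 without PGC-1αf/f replicate 3. Mcm3 had the lowest difference of all members. It gave 1.23, 1.43 and 1.27 in PGC-1αf/f and 0.80, 0.81 and 1.25 in mPGC-1α microglia. mPGC-1α replicates 1 and 2 were below every control, and replicate 3 lay among them. The difference was -0.36 (SE 0.17, 95% interval -0.76 to 0.05), with a limma adjusted p of 0.338, and it was -0.51 without mPGC-1α replicate 3. The other tested Mcm3 probes also differed in the negative direction, by -0.23 and -0.17.

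The other MCM subunits, which form a single ring with MCM3, did not share a sign, and most of their differences were small or moved with single arrays. Mcm7 gave 1.42, 1.44 and 1.06 against 1.28, 1.25 and 0.94, a difference of -0.15 (SE 0.17). Mcm6 gave 0.99, 1.48 and 0.96 against 0.96, 1.06 and 1.12, a difference of -0.09 (SE 0.18). Groups overlapped for both subunits. Mcm2, Mcm4 and Mcm5 differed by 0.40, 0.23 and 0.46. Mcm4 was at 0.10 and Mcm5 at 0.06 without PGC-1αf/f replicate 3, and Mcm2 was at 0.17 and Mcm4 at 0.12 without mPGC-1α replicate 3. Mcm7 was at -0.27 without PGC-1αf/f replicate 3 and at -0.04 without mPGC-1α replicate 3, and Mcm6 was at -0.18 and -0.13. Of the loading factors, Cdt1 differed by 0.13 and Cdc6 by 0.47, the latter well above background on 2 PGC-1αf/f and 3 mPGC-1α arrays. Both came close to 0 without PGC-1αf/f replicate 3, at 0.0056 and 0.12.

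The replication clamp and the enzymes of nucleotide supply all had positive differences. Pcna, the sliding clamp of DNA polymerases, gave 2.66, 2.59 and 2.47 in PGC-1αf/f and 2.80, 2.77 and 2.93 in mPGC-1α microglia. The groups did not overlap, yet the difference was small at 0.26 (SE 0.13, limma adjusted p 0.353). Rrm2, the cell cycle-regulated subunit of ribonucleotide reductase, gave -0.72, 0.21 and -2.53 against -0.12, 0.19 and 0.37. PGC-1αf/f replicate 2 lay between the mPGC-1α arrays and replicate 3 far below them, so the difference of 1.16 (SE 0.63) became 0.40 without replicate 3.

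The stable subunit Rrm1 differed by 0.30 (SE 0.18). Thymidine kinase Tk1, an S phase enzyme, differed by 0.90 (SE 0.44) and its second probe by 1.11, or by 0.59 and 0.67 without PGC-1αf/f replicate 3. Thymidylate synthase Tyms differed by 0.10 (SE 0.18). Within the group, Rrm2 and Tk1 thus had the larger differences and the larger standard errors.

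**Figure D3:**
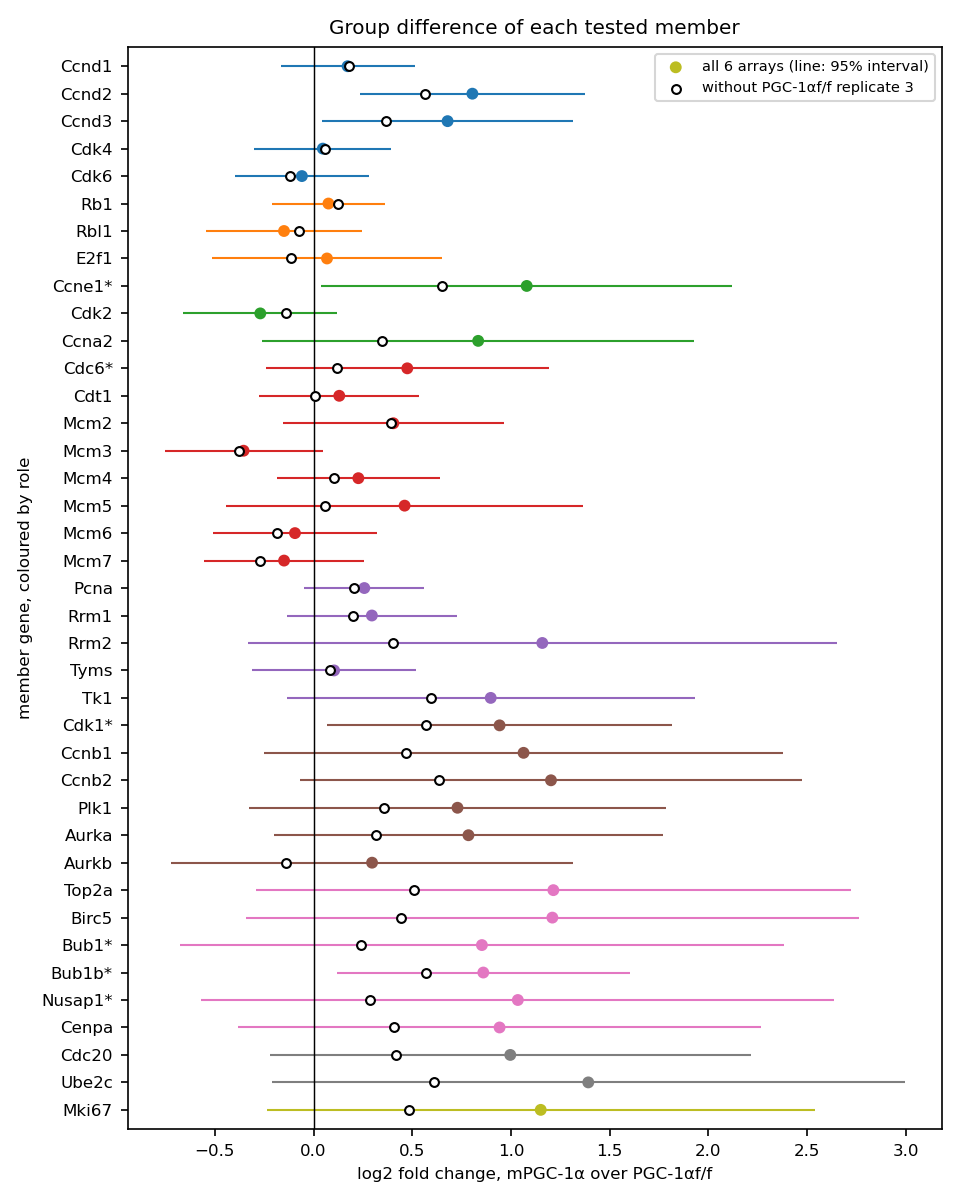
Difference between groups of each tested member as log2 fold change (x axis), with its 95% interval (line) on all 6 arrays and the value without PGC-1αf/f replicate 3 (open circle); colours mark roles. Most mitotic members lie near 1 with intervals that include 0, and move towards 0 without that array.

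All 11 mitotic members measured on all arrays, Mki67 among them, had positive differences, from 0.30 to 1.39, and 0 passed the test. Ube2c, the E2 enzyme of the anaphase-promoting complex, had the highest difference of the members measured on all arrays. It gave -1.04, 0.17 and -2.78 in PGC-1αf/f and -0.22, 0.48 and 0.28 in mPGC-1α microglia. PGC-1αf/f replicate 2 was above mPGC-1α replicate 1, and PGC-1αf/f replicate 3 was far below all arrays. The difference was 1.39 (SE 0.68, 95% interval -0.21 to 3.00), or 2.63-fold, and limma gave an adjusted p of 0.345. It was 0.61 without PGC-1αf/f replicate 3.

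Top2a, the topoisomerase that untangles chromosomes, gave -1.45, -0.41 and -3.05 against -0.97, 0.09 and -0.38. Birc5, which encodes the chromosomal passenger protein survivin, gave 0.72, 1.61 and -1.14 against 1.11, 1.78 and 1.93. The array order within the controls was that of Ube2c in both genes. Top2a differed by 1.22 (SE 0.64) and Birc5 by 1.21 (SE 0.66), with limma adjusted p-values of 0.370 and 0.381. Without PGC-1αf/f replicate 3 these became 0.51 and 0.44. Second probes of Top2a and Birc5 differed by 0.96 and 1.58, or by 0.33 and 0.57 without that array. Both second probes were well above background on 1 PGC-1αf/f and 3 mPGC-1α arrays.

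Cyclin B2 and its kinase followed the same arrays. Ccnb2 gave -1.85, -0.66 and -2.96 in PGC-1αf/f and -0.95, -0.27 and -0.64 in mPGC-1α microglia, a difference of 1.20 (SE 0.54, limma adjusted p 0.318). Cdk1, the mitotic kinase, gave -3.14, -2.37 and -3.87 against -2.47, -1.91 and -2.17. It was well above background on 2 PGC-1αf/f and 3 mPGC-1α arrays and differed by 0.94 (SE 0.37, limma adjusted p 0.280). PGC-1αf/f replicate 2 overlapped the mPGC-1α arrays in both genes. On leaving out PGC-1αf/f replicate 3, Ccnb2 was at 0.63 and Cdk1 at 0.57.

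Mki67, which encodes the proliferation antigen Ki-67, gave -0.31, 0.48 and -1.91 in PGC-1αf/f and 0.03, 0.97 and 0.70 in mPGC-1α microglia. The controls spanned more than the mPGC-1α arrays and included a value between mPGC-1α replicates 1 and 3. The difference was 1.15 (SE 0.59, 95% interval -0.24 to 2.54), or 2.22-fold, and limma gave an adjusted p of 0.360. Without PGC-1αf/f replicate 3 it was 0.48, and without PGC-1αf/f replicate 2 it was 1.68.

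The remaining tested mitotic members had differences from 0.30 to 1.06. Ccnb1, the second B-type cyclin, differed by 1.06, the kinases Plk1, Aurka and Aurkb by 0.73, 0.78 and 0.30, and the anaphase activator Cdc20 by 1.00. The lesser probes of Ccnb1 and Cdc20 differed by 0.54 and 0.45, and by 0.071 and 0.047 without PGC-1αf/f replicate 3. The centromeric histone Cenpa differed by 0.94. Bub1 and Bub1b, kinases of the spindle checkpoint, and the spindle protein Nusap1 differed by 0.85, 0.86 and 1.04 and were each well above background on 3 mPGC-1α arrays but on only 1, 1 and 2 PGC-1αf/f arrays. All of these shrank on leaving out PGC-1αf/f replicate 3. Ccnb1 was then at 0.47, Plk1 at 0.36, Aurka at 0.32, Cdc20 at 0.42, Cenpa at 0.41, Bub1 at 0.24, Bub1b at 0.57 and Nusap1 at 0.29, while Aurkb turned to -0.14.

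**Figure D4:**
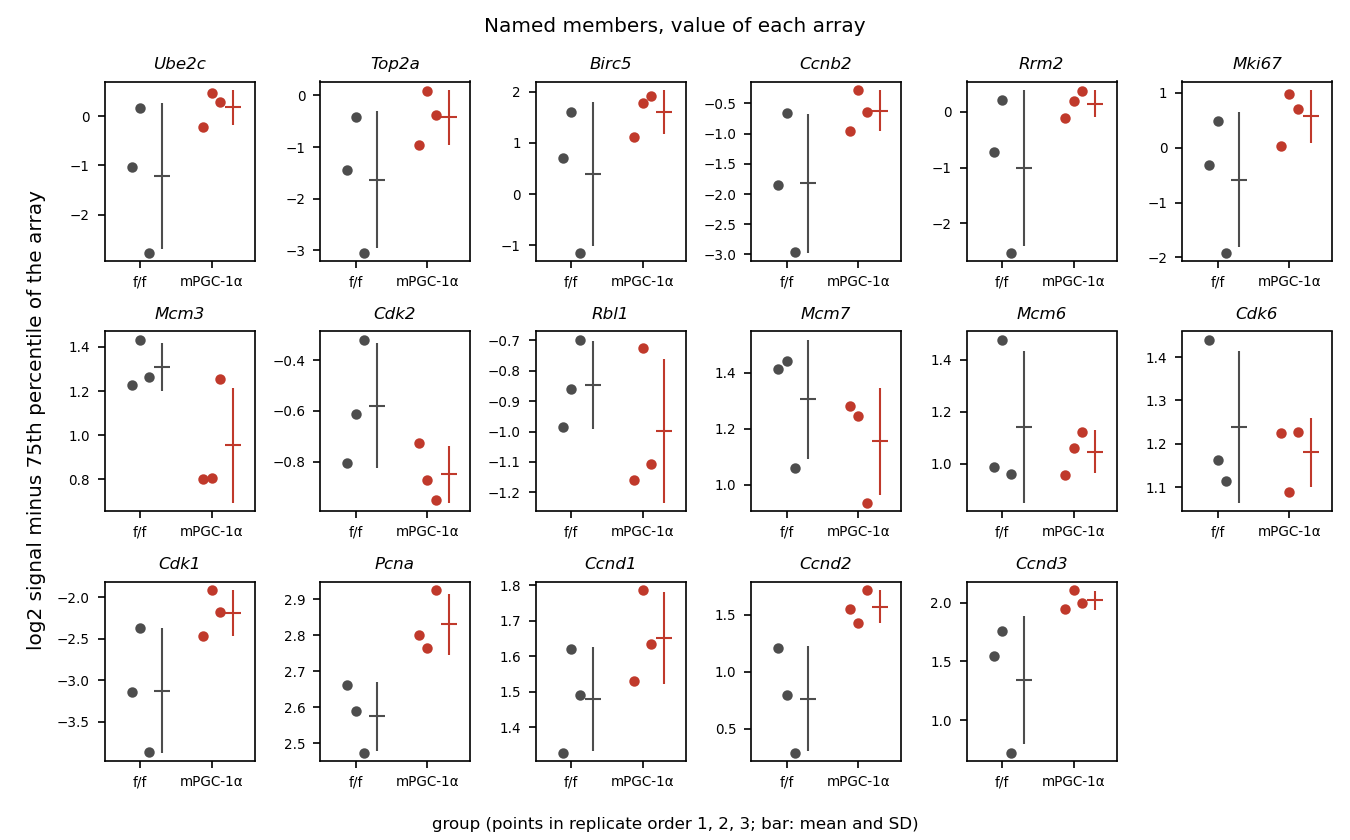
Log2 signal minus the 75th percentile of the array (y axis, own scale in each panel) for 17 named members on each array of PGC-1αf/f (f/f, grey) and mPGC-1α (red); points are in replicate order 1, 2, 3 and the bar gives the mean and SD (n = 3). PGC-1αf/f replicate 3 is the lowest point for Ube2c, Top2a, Birc5, Ccnb2, Rrm2, Mki67 and Cdk1, and the groups do not overlap for Pcna, Ccnd2 and Ccnd3.

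The spread of the mitotic genes lay in the controls. All 11 fully measured mitotic members, Mki67 included, had their lowest value on PGC-1αf/f replicate 3, against 32.1% of all genes measured on all arrays. All 11 ranked the controls as replicate 3, 1, 2 from low to high, against 12.6% of all genes, and in all 11 replicate 2 was above the lowest mPGC-1α array, against 68.5%. All 11 also had the larger SD in PGC-1αf/f, against 59.2% of all genes. The median SD was 1.15 in PGC-1αf/f and 0.35 in mPGC-1α microglia. These genes share arrays and are not independent of each other.

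The same 11 genes also followed Xist. In all 11, the 3 arrays with Xist well above background were the 3 highest, which held for 4.86% of all genes measured on all arrays and for 8 of the 22 members outside mitosis. It also held for 9 of 15 blood leukocyte markers and for 20 of 41 other genes of mitosis and cytokinesis. Between the arrays with Xist the median difference of the 11 genes was 0.20 (1 PGC-1αf/f against 2 mPGC-1α arrays), and between those without it was 1.27 (2 against 1). With Xist detection as a block the median was 0.67, and 10 of the 11 differences were positive. The part of Xist-bearing RNA in these values was not tested.

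Blood leukocyte markers mostly shared their lowest array, and their order of the controls, with the mitotic genes. Elane and Mpo, enzymes made by granulocyte precursors, were well above background on every array but PGC-1αf/f replicate 3. Elane gave -2.10, -0.04 and -6.47 in PGC-1αf/f and -0.50, -0.07 and 0.17 in mPGC-1α microglia. Among the 15 leukocyte markers measured on all arrays, 12 ranked the controls as replicate 3, 1, 2 from low to high. S100a8 and S100a9 were instead highest among the controls on replicate 1. The median deviation on PGC-1αf/f replicate 1 was 0.18 for the leukocyte markers and -0.42 for the 11 mitotic genes. Of the 15 leukocyte markers measured on all arrays, 14 were lowest on PGC-1αf/f replicate 3, and their median difference of 1.11 became 0.35 without it. The corresponding medians of the 11 mitotic genes were 1.06 and 0.44. Erythroid markers were also lowest on that array (4 of 4, median deviation -1.03), as were endothelial and mural markers (7 of 7) and 6 of 9 neuronal markers (median deviation -0.65), and oligodendrocyte markers were highest there (median deviation 0.64). The part of any of these cells in the mitotic signal was not tested.

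A wider set of 138 other cell cycle genes was examined for the same pattern. Of 120 tested, 1 passed an adjusted p of 0.05 (0.0535% of all tested genes), namely Cdkn1a, the inhibitor p21. An unadjusted p under 0.05 was met by 13 with positive (7.83% of all) and 4 with negative differences (5.75% of all). Of the 13, Wee1, Ttk, Wdhd1 and Cit were well above background on only 3, 4, 5 and 5 of the 6 arrays. They were higher in mPGC-1α, the group through which the filter could admit them. Among genes well above background on all arrays, 6.6% were higher at that p. Cdkn1a differed by 3.00 (SE 0.19, limma adjusted p 0.00726). Its adjusted p in limma was 0.0807 with the replicate block and 0.0612, 0.0799 and 0.0827 without PGC-1αf/f replicate 2, mPGC-1α replicate 2 and mPGC-1α replicate 3, while the difference stayed at 3.00, 2.91, 2.94 and 3.00. The median difference of the 100 measured on all arrays was 0.16, with 70 positive and 30 negative, where 53.0% of all such genes were positive. Of the 41 fully measured genes of mitosis and cytokinesis, 28 were lowest on PGC-1αf/f replicate 3 (32.1% of all such genes), and the median of 0.29 became 0.19 without it.

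Among the other cell cycle genes well above background on all 6 arrays, the highest differences after Cdkn1a belonged to mitotic genes. Cdca3, a trigger of mitotic entry, differed by 1.30, the spindle assembly factor Tpx2 by 1.25, and the chromosomal passenger protein Cdca8 by 1.24. PGC-1αf/f replicate 3 was the lowest array for each of them, and without it they were at 0.60, 0.68 and 0.71. The lowest differences were those of the condensin subunit Ncaph at -0.59, mitochondrial thymidine kinase Tk2 at -0.45, and the MuvB complex subunits Lin52 at -0.43 and Lin9 at -0.41. The groups did not overlap for Ncaph, Tk2 and Lin9, with limma adjusted p-values of 0.199, 0.193 and 0.298.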

How the data were processed

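Microglial RNA of 6 samples (3 without and 3 with PGC-1α overexpression) was amplified, labelled with Cy5 and hybridized to Agilent arrays by the authors. The deposited scanner files give spot intensity after background subtraction by Feature Extraction, and the deposited series table gives the same intensity without normalization between arrays. Control and outlier spots were removed, each array's 75th percentile over 59305 spots was subtracted from its log2 intensity, and spots of a probe were averaged. Of 56605 probes, 25333 well above background (at least 0.5 of spots) on all arrays of a group were tested with limma 3.58.1 under R 4.3.3 (two-sided, lmFit then eBayes) with Benjamini-Hochberg adjustment, and 25257 gave a p-value; 20 passed 0.05. The fit was tested on simulated data. Symbols came from RefSeq accessions of GRCm38.p6 (33767 probes).

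Members and lists were chosen with earlier results of these data known. Named members were up to 6 with the highest and 6 with the lowest difference among those well above background on all 6 arrays, plus Mki67, Top2a, Cdk1, Pcna and Ccnd1. Ccnd2 and Ccnd3 were added after their values were seen. Of the other cell cycle genes, those past the threshold and up to 4 at each end were named. Markers of 9 cell types were listed: in addition to those in the results, neurons, astrocytes, oligodendrocytes and their precursors, border macrophages and erythroid cells had median differences of 0.14, 0.03, -0.58, 0.11, 0.34 and 0.11. Without PGC-1αf/f replicate 3 these were -0.08, -0.09, -0.42, 0.01, 0.29 and -0.38, and without mPGC-1α replicate 3 border macrophages were at 0.07 and erythroid cells at -0.17. Alternatives covered normalization, filters, blocks, weights and leaving out arrays. The array number limits the precision. Python 3.11.15, pandas 2.3.3, numpy 2.4.6 and matplotlib 3.10.9 were used.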

Additional observations from a re-analysis of the deposited data

How the results depend on the processing

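Across 19 alternatives, 14 of the 17 named members kept their direction wherever they were tested. Rbl1 turned to 0.0239 with array weights. Leaving out each array, Cdk6 ranged from -0.121 to 0.0409 and Mcm6 from -0.185 to 0.0734, with the positive values on leaving out PGC-1αf/f replicates 1 and 2. With array weights, Mcm3 (-0.56, limma adjusted p 0.0196) and Ccnd2 (0.68, limma adjusted p 0.0192) were among the 10.9% of all tested genes that passed the threshold. That fit stopped before convergence and gave PGC-1αf/f replicate 2 a weight of 5.28 and mPGC-1α replicate 2 a weight of 3.4, the others 0.806 or less.

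The number of members past the threshold was 0 in every other alternative and 2 of 39 with array weights, where 10.9% of all tested genes passed. Over all probes the count of 20 became 11 with quantile normalization, with the median shift and with normexp, 456 in the deposited table without normalization, 9 without a filter, 4 with the filter on all arrays, 3494 with array weights, 138 with a random block for the slide column, 3 without both replicate 3 arrays and 8 with Xist detection as a block.

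Members higher at an unadjusted p under 0.05, with the share of all tested genes under the same setting, numbered 13 in the table without normalization (5.48%), 2 with the filter on all arrays (7.26%), 3 with array weights (16.2%), 1 without both replicate 3 arrays (5.78%) and 3 with the Xist block (5.24%). Lower members numbered 1 with the median shift (8.15%), 3 with array weights (12.4%), 1 with the slide column (7.19%) and 1 without both replicate 3 arrays (3.66%). Members lying wholly higher numbered 2 with the median shift (7.33%) and 1 in the table without normalization (9.18%), and wholly lower 1 with quantile normalization (13.3%), 2 with the median shift (16.1%) and 3 without both replicate 3 arrays (20.5%).

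The median over tested members was 0.68. It included the 6 members that met the filter only through the mPGC-1α arrays, where they were higher. The median was 0.40 with the filter on all arrays, 0.14 with array weights, 0.18 without both replicate 3 arrays and 0.38 with normexp. With the filter on all arrays the mitotic kinases and cyclins were at 0.785, and chromosomes and spindle at 1.21. Array weights took the mitotic kinases and cyclins from 0.86 to 0.29, chromosomes and spindle from 0.99 to 0.24, the anaphase-promoting complex partners from 1.19 to 0.30 and Mki67 from 1.15 to 0.49. The G1 cyclins and kinases moved to 0.0396 with the median shift, and RB and E2F to -0.0896 with the Xist block. The G1 to S cyclins and kinase, at 0.83, moved to 0.41 without a filter, 0.28 with the filter on all arrays, 0.14 with array weights, 0.23 without both replicate 3 arrays and 0.50 with the Xist block. Licensing moved from 0.178 to -0.0578 with array weights and -0.00996 without both replicate 3 arrays. Other cell cycle genes past the threshold numbered 6 with array weights, again beside 10.9% of all tested genes.

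Leaving out each array in turn gave 0 to 25 probes and 0 to 1 other cell cycle genes past the threshold. Members at an unadjusted p under 0.05 ranged from 1 to 21 higher (4.65% to 12.1% of all tested genes) and from 0 to 1 lower (3.48% to 6.49%), and members without overlap from 4 to 27 higher (15.7% to 24.7%) and from 0 to 2 lower (12.8% to 18.1%). The upper ends of 21 and 27 came without PGC-1αf/f replicate 2, and without mPGC-1α replicate 1 the second was 18. The member median ranged from 0.29 to 0.82, the ends coming from the removal of PGC-1αf/f replicates 3 and 2, RB and E2F from -0.0946 to 0.0824, and the G1 to S group from 0.35 to 1.31. The cause of these shifts was not tested.

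With the replicate number as a block, 0 probes and 0 other cell cycle genes passed the threshold, and Cdkn1a had a limma adjusted p of 0.0807. In that fit 8 of 39 members were higher at an unadjusted p under 0.05 (10.1% of all tested genes). Cdk1, which met the filter only through the mPGC-1α arrays, was among these 8. They were not counted over the 33 members measured on all arrays. Correlations of same-numbered deviations were 0.139, 0.127 and 0.0187. They were not compared with those of differently numbered arrays, so pairing by replicate number was not tested. The Xist block and the removal of both replicate 3 arrays were chosen after seeing the data. Signals near background limit Ccne1, Cdc6, Cdk1, Bub1, Bub1b and Nusap1.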
